A study of Mus musculus with 4 samples.

Results

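Oxidative phosphorylation is carried out by 5 protein complexes of the inner mitochondrial membrane, and 83 of their nuclear genes were followed here among the 32286 features that every library listed. They were taken by symbol, with no regard to their levels: 36 genes of complex I (Ndufa, Ndufb, Ndufc, Ndufs and Ndufv), 4 of complex II (Sdha to Sdhd), 8 of complex III (Uqcr), 18 of complex IV (Cox4 to Cox8) and 17 of complex V (Atp5). Symbols ending in -ps, which mark pseudogenes, would have been left out, and 0 such symbols occurred. The pattern does not take in every subunit: Cyc1 of complex III and Ndufab1 of complex I carry other names, Ndufa4 is grouped with complex I by its name although its product is known as a subunit of complex IV, and Cox7a2l is grouped with complex IV by its name although its product helps complexes to join into supercomplexes. All 83 genes were listed in each library, and the number that reached the level needed for a comparison is given with each comparison.

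Gastruloids are aggregates of mouse embryonic stem cells that lay down embryo-like tissues in culture, and those profiled here were grown to form cardiac and skeletal muscle. All were wild type and came from 1 mouse embryonic stem cell line, Zx1, so every day shares that genotype and that line. The aggregates received a pulse of the WNT pathway agonist CHIR99021 before day 4 and, per the study's methods, cardiogenic factors (bFGF, VEGF and ascorbic acid) over the days that followed. Several gastruloids were pooled and dissociated on each of days 4, 5, 6 and 11, giving 1 single-cell 3′ library per day and 4 libraries in all. With 1 library per day there is no replicate: no test can be made between days or between cell sets, so ratios are given with 95% intervals that cover counting error only.

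The 4 libraries held 7324, 7794, 6628 and 9584 cells in day order and between 149169498 and 236714826 unique molecular identifiers (UMIs, 1 per captured RNA molecule). After filters on depth, mitochondrial and ribosomal content and predicted doublets, 6555, 6457, 5254 and 7854 cells were kept, with median depths of 24186, 28018, 24646 and 11351 UMIs. Day 11 was thus the shallowest library, and its file header names Cell Ranger 6.0.1 where the other 3 name 3.1.0, so day and software version cannot be told apart. Pairs of libraries shared between 4 and 17 cell barcodes. Levels below are UMIs per 1000000 UMIs (CPM) summed over the cells of a set. In 3′ counting each molecule gives 1 tag whatever its length, so levels were not divided by length. How well reads can be assigned still differs between genes, so levels of different genes are set side by side with less certainty.

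Complexes I and II pass electrons from NADH and succinate to ubiquinone, complex III passes them on to cytochrome c, complex IV reduces oxygen, and complex V, the ATP synthase, uses the proton gradient that results. A further 13 subunits of complexes I, III, IV and V are encoded by mitochondrial DNA. Heart muscle is dense in mitochondria, and striated muscle replaces several ubiquitous complex IV subunits by tissue isoforms: Cox6a2 for Cox6a1, Cox7a1 for Cox7a2 and, in rodents, Cox8b for Cox8a. Cox4i2 is an oxygen-responsive form of Cox4i1, Cox6b2 a testis form of Cox6b1, and Atp5g1, Atp5g2 and Atp5g3 encode 1 and the same mature c-subunit of the ATP synthase rotor.

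The 83 genes together took 2.65%, 2.90%, 2.72% and 4.04% of all UMIs in day order. The first 3 days lay close together, and day 11 stood above them. The difference was not spread evenly over the cells of day 11: the median cell held 2.63%, 2.90%, 2.65% and 3.03% in day order, and at day 11 the lower quartile of cells, 2.60%, was near that of day 5, 2.65%. Per complex, complex I took 0.801%, 0.923%, 0.857% and 1.28% of UMIs from day 4 to day 11, complex IV 0.700%, 0.742%, 0.637% and 1.08%, and complex V 0.862%, 0.926%, 0.910% and 1.23%. Complex III went with them, with 0.250%, 0.262%, 0.265% and 0.415%, while the 4 genes of complex II stayed between 0.0401% and 0.0504% on all 4 days and were not higher at day 11 (0.0490%) than at day 6 (0.0504%). The 13 mitochondrially encoded subunits took 2.42%, 2.75%, 3.06% and 2.79%, so the nuclear genes stood to them as 1.098, 1.06, 0.889 and 1.45 to 1 in day order. Cytoplasmic ribosomal protein genes took 34.6%, 32.9%, 27.2% and 24.7% over the same days. With ribosomal protein and mitochondrially encoded genes left out of the total, the share of the 83 genes was 4.21%, 4.51%, 3.90% and 5.58%.

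Most of the day 11 difference lay in the cells with high Myl7, the atrial-type myosin light chain that marks early and atrial heart muscle. Cells with at least 3000 CPM of Myl7, called Myl7-high here, numbered 0 at days 4 and 5, 439 at day 6 (8.36% of cells) and 1310 at day 11 (16.7%); 148 and 134 of all cells lay near the limit, between 2000 and 4500 CPM. The cardiomyocyte markers Tnnt2, Actn2, Ttn, Myh6, Myl4, Nkx2-5 and Tnni1 summed to 24140 CPM in the Myl7-high cells of day 11 against 355 in the other cells. At day 6 they summed to 14832 against 411 CPM. On both days 7 of 7 were present in both sets, so only the levels set them apart. Myogenin (Myog), which drives the terminal differentiation of skeletal muscle, had a UMI in 5, 3, 3 and 199 cells by day; at day 11 20 of these were also Myl7-high, and the remaining 179 (2.28% of cells, 53 of them with a single Myog UMI) form the Myog positive set. The 7 skeletal muscle markers summed to 2963 CPM in this set, against 37.2 CPM in the other cells and 176 CPM in Myl7-high cells. Each of these sets had 7 of 7 present, so only the levels set them apart. Among the markers, the Myog positive set held Myod1 at 299.9 CPM, Mymk at 201 CPM and embryonic myosin Myh3 at 558 CPM. All 7 genes of the cardiomyocyte list were present there too and summed to 4753 CPM, more than the skeletal muscle list. Tnnt2 was at 1110 CPM and Ttn at 1158 CPM, and several genes of this list are also expressed in early skeletal muscle. Myh6, by contrast, was at 12.0 CPM against 2553 CPM in Myl7-high cells and Nkx2-5 at 0.8 against 148 CPM. All remaining cells of a library are called other cells.

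In Myl7-high cells the 83 genes took 4.198% of UMIs at day 6 and 7.57% at day 11, against 2.59% and 2.93% in the other cells of the same libraries and 3.47% in Myog positive cells. The middle 50% of Myl7-high cells at day 11 ran from 6.15% to 8.68%, that of Myog positive cells from 3.01% to 3.80% and that of other cells from 2.50% to 3.28%, so the middle ranges of Myl7-high cells and of both other sets did not overlap. Myl7-high cells were 16.7% of the cells of day 11 and 23.6% of its UMIs, yet held 44.1% of the UMIs of the 83 genes; at day 6 they held 12.0% of them with 7.78% of UMIs. In the other cells, the share at day 11 (2.93%) was above that at day 6 (2.59%) and close to that of all cells at day 5 (2.90%). With ribosomal protein and mitochondrially encoded genes left out of the total, the day 11 shares were 9.69% in Myl7-high, 5.17% in Myog positive and 4.14% in other cells.

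**Figure D1:**
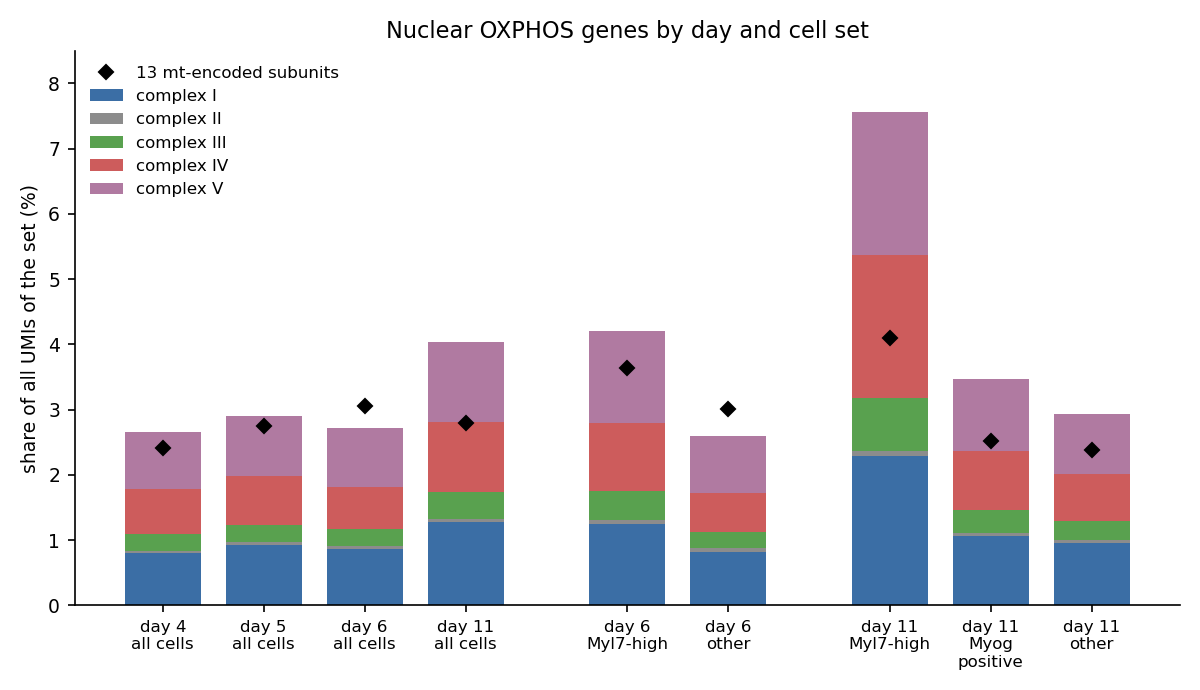
Percent of all UMIs of a set in the 83 nuclear genes (bars, stacked by complex) for all cells of each day and for the cell sets of days 6 and 11, with the 13 mitochondrially encoded subunits as diamonds; 1 library per day. The Myl7-high bar of day 11 reaches 7.57%, while that of the other cells of the same library is at 2.93%.

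The remaining cell sets of day 11, each gated on a pair of marker UMIs and counted among cells that are neither Myl7-high nor Myog positive, kept to a narrow band. Cells with Elavl3 and Stmn2, neuronal genes, gave 3.19% (445 cells), cells with Sox2 and Sox3, neural progenitor genes, 3.02% (304 cells), cells with the myeloid genes Fcer1g and Tyrobp 2.96% (63 cells), cells with the mesenchymal genes Pdgfra and Twist1 2.71% (1605 cells), and cells with the endothelial genes Cdh5 and Pecam1 2.65% (390 cells). Cells with Myf5, a factor of skeletal muscle progenitors, gave 3.45% (66 cells), next to the 3.47% of Myog positive cells. At day 6 the endothelial set was likewise the lowest, at 2.27%, and its nuclear genes stood to the mitochondrially encoded ones as only 0.580 to 1, against 0.889 over the whole library. Within the Myl7-high cells of day 11 the spread was small next to the distance from other cells: 8.01% in 360 cells with at least 1000 CPM of the ventricular light chain Myl2, 7.37% in the 950 cells below that, 7.79% in 581 cells with 3 or more UMIs of Shox2, a sinoatrial factor, and 7.11% in 125 cells with 2 or more UMIs of the proliferation gene Top2a. These gates can overlap, and a gate on UMIs takes deeper cells by preference.

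**Figure D2:**
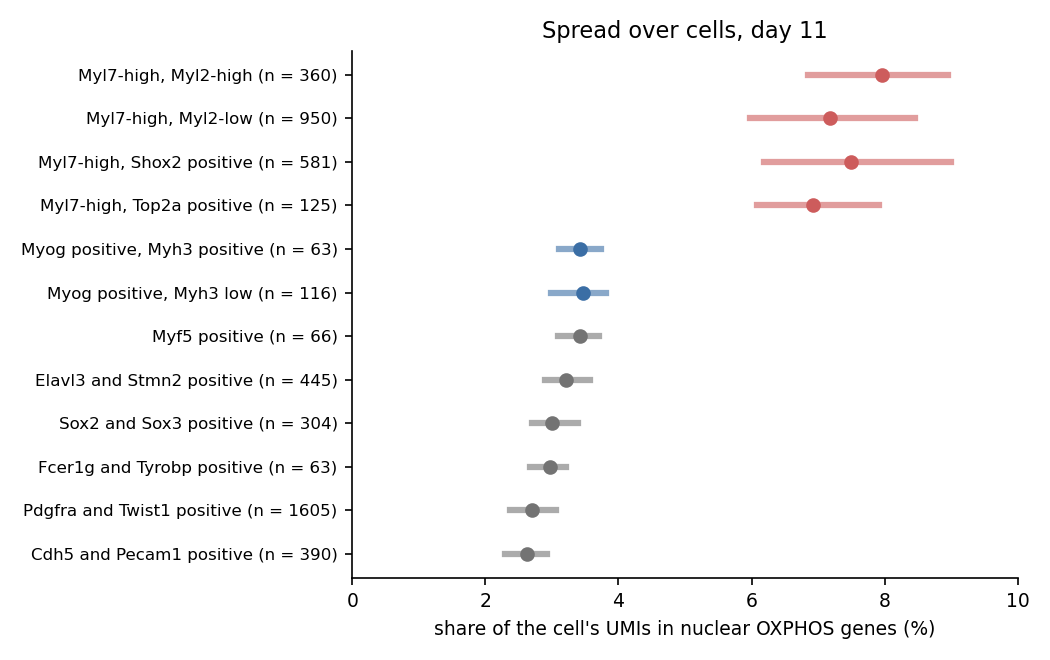
Percent of a cell's UMIs in the 83 nuclear genes for the cell sets of day 11, with the median cell (point) and the middle 50% of cells (bar); n is the number of cells, all from 1 library. The medians of the 4 Myl7-high sets lie apart from those of every other set, whose bars end below 4%.

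Between single days, a gene was compared where the mean of both levels was at least 10 CPM, and it was counted as higher or lower past a 1.5-fold ratio. Shares of all genes, here and for cell sets, were counted under these limits only. Counts of the 83 genes under other limits, totals, depths or scales stand without such a share. From day 4 to day 5, 77 of the 83 genes could be compared; the 6 left out were Cox4i2, Cox6a2, Cox7a1, Cox7b2, Cox8b and Cox8c, all tissue forms of complex IV. At day 5, 5 of the 77 were higher and 0 lower, where 14.5% of all genes compared were higher and 15.3% lower, so fewer of them lay past the limit than of all genes; their median log2 ratio was 0.13 against -0.04 over all genes. Ndufa9, an accessory subunit of complex I, had 59.6 CPM at day 4 and 112 at day 5 (ratio 1.87). Cox6b2 went from 53.0 to 92.9 CPM (1.75), Ndufv1, the subunit that takes electrons from NADH, from 73.5 to 123 CPM (1.67), and Sdhd, a membrane anchor of complex II, from 89.6 to 147 CPM (1.64). Ndufs5 was the fifth, at a ratio of 1.53. The lowest ratios were 0.699 for Atp5k, 0.708 for Ndufv3 and 0.789 for Cox7b, none of them past the limit. The count of 5 was 1 higher and 1 lower in cells of 8000 to 20000 UMIs, and 5 higher and 2 lower on a total without ribosomal protein and mitochondrially encoded genes.

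At day 6 against day 5, 4 of 79 genes were higher and 4 lower, against a background of 24.1% higher and 9.65% lower. The median log2 ratio of all genes was itself 0.17 in this comparison, and that of the 79 was -0.09. Relative to the all-gene median 4 were higher and 11 lower, with no share of all genes counted on that scale. The 2 with the highest ratio were complex IV tissue forms: Cox4i2 went from 6.80 to 58.2 CPM (ratio 8.57) and the muscle form Cox6a2 from 4.45 to 18.0 CPM (4.05), both of them admitted to the comparison by their day 6 level alone. Ndufs8, an iron-sulfur subunit of complex I (1.78), and Uqcrfs1, the Rieske iron-sulfur protein of complex III, from 155.2 to 270.1 CPM (1.74), were the other two. Lower were Cox6b2 (from 92.9 to 27.96 CPM, 0.301), Ndufb6 (0.580), Ndufa5 (0.643) and Cox7c (0.657). Cox4i2 and Cox6b2 thus lay at opposite ends. Of their ubiquitous forms, Cox4i1 had 884 and 883 CPM and Cox6b1 711 and 535 CPM at days 5 and 6. In cells of 8000 to 20000 UMIs, 7 genes were higher, and at a 2-fold limit 2 were higher and 1 lower.

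Day 11 against day 6 was of another order: 41 of 81 genes were higher and 1 lower, against 15.4% and 12.8% of all genes, with a median log2 ratio of 0.59 against 0.00. The muscle forms came first. Cox6a2 had 0.0613, 4.45, 18.0 and 691 CPM from day 4 to day 11 (ratio of day 11 to day 6 38.3, interval 36.9 to 39.8), Cox7a1 10.5, 6.22, 13.1 and 81.4 CPM (6.22), and Cox8b 0, 3 and 57 UMIs on the first 3 days and 23.9 CPM at day 11 (62.7, 48.3 to 83.02); Cox8b was admitted by its day 11 level alone. Small subunits of complexes I and III followed: Uqcrq with 265, 288, 231 and 548 CPM by day (2.37), Uqcr10 (2.25) and Ndufa5 (2.09). Only Sdhd was lower, with 89.6, 147, 121 and 50.4 CPM by day (0.415). Its complex II partners differed from it: Sdha, the flavoprotein, stayed between 87.2 and 94.5 CPM on all 4 days, Sdhb, the iron-sulfur subunit, had 133, 152, 183 and 236 CPM, and Sdhc 86.5, 94.1, 112 and 109 CPM.

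How many genes passed 1.5-fold at day 11 depended on which cells were weighed. The 41 became 26 when every cell counted alike and 16 among cells of 8000 to 20000 UMIs, and at a 2-fold limit 6 remained. Within the other cells alone, which leaves out the Myl7-high and Myog positive cells of both days, day 11 had 7 of 79 genes higher and 1 lower than day 6 (background 15.2% and 11.0%), with a median log2 ratio of 0.23 against 0.03. Among these 7, Atp5l had a ratio of 1.63 and Ndufa2 1.59. Cox6a2 had 1.53 CPM at day 6 and 45.9 at day 11 (30.02) and was admitted by its day 11 level alone; the 5882 other cells of day 11 with under 200 CPM of Myl7 held 8.67 CPM, from 664 of the 3776 Cox6a2 UMIs. Sdhd had the lowest ratio there too (116 to 39.8 CPM, 0.343), ahead of Sdhc (0.730) and Atp5b, the catalytic beta subunit of ATP synthase (0.742). Within Myl7-high cells alone, 60 of 81 were higher at day 11 than at day 6 and 1 lower (background 14.6% and 20.2%; median log2 ratio 0.81 against -0.12). Cox8b led with a ratio of 19.9 and Cox6a2 with 12.97, and Ndufa5 (2.87) and Uqcrq (2.76) came next, while Sdhd was again the lower gene (187 to 84.2 CPM, 0.451) and Atp5g2 was level (1.01). Sdhd was accordingly lower at day 11 in both sets, and the part of the different Cell Ranger version in this was not tested.

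At day 6, Myl7-high cells were above the other cells for 52 of 80 genes and below them for 1, against 13.4% and 16.2% of all genes; the median log2 ratio was 0.68 against -0.08. Cox6a2 was at 214 against 1.53 CPM (ratio 140, 121 to 162) and Cox7a1 at 119 against 4.18 CPM (28.4), both of them muscle forms. Cox5a, a ubiquitous subunit of complex IV, was at 1280 against 584 CPM (2.19) and Uqcrq at 456 against 212 CPM (2.15). At the other end, Atp5g2 was level (1221 CPM in both), Ndufa7 reached 1.18, and Cox6b2 was lower (14.1 against 29.1 CPM, 0.483). Many of the 52 lay near the limit: 9 passed at 2-fold, 17 passed in cells of 8000 to 20000 UMIs, where 126 Myl7-high cells remained, and 34 passed on a total without ribosomal protein and mitochondrially encoded genes.

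At day 11 the contrast took in nearly the whole machinery. Of 81 genes, 78 were higher in Myl7-high than in other cells and 1 was lower, against 17.2% and 32.2% of all genes, with a median log2 ratio of 1.29 against -0.26; at a 2-fold limit 62 were higher. All 36 genes of complex I, 4 of complex II and 8 of complex III passed, as did 15 of the 17 of complex V and 15 of the 16 compared in complex IV. The catalytic core was included: Ndufs1, the largest iron-sulfur subunit of complex I, had 148 CPM in Myl7-high and 45.4 in other cells, Sdha 152 and 77.2, Uqcrc1 268 and 101, and Atp5b 1865 and 515. Behind the muscle forms Cox6a2 (ratio 60.4, 58.4 to 62.4), Cox8b (45.2, 38.7 to 53.2) and Cox7a1 (36.2, 33.6 to 39.1) stood Uqcr11 (1458 against 346 CPM, 4.21), Uqcrq (3.95) and Cox7b (3.89). The exceptions were Cox6b2, lower at 27.6 against 41.8 CPM (0.660), and 2 genes that were higher by less than 1.5-fold, Atp5g2 (1.32) and Atp5e (1.47). Summed per complex, complex IV had the highest ratio (2.99), then complex III (2.80), complexes I and V (both 2.39) and complex II (2.14), all above the ratio of the mitochondrially encoded subunits (1.72). Myl7-high cells were deeper (median 17442 against 10612 UMIs) and held less ribosomal protein RNA (17.8% against 26.7% of UMIs); among cells of 8000 to 20000 UMIs their share was 7.37% against 2.90%.

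**Figure D3:**
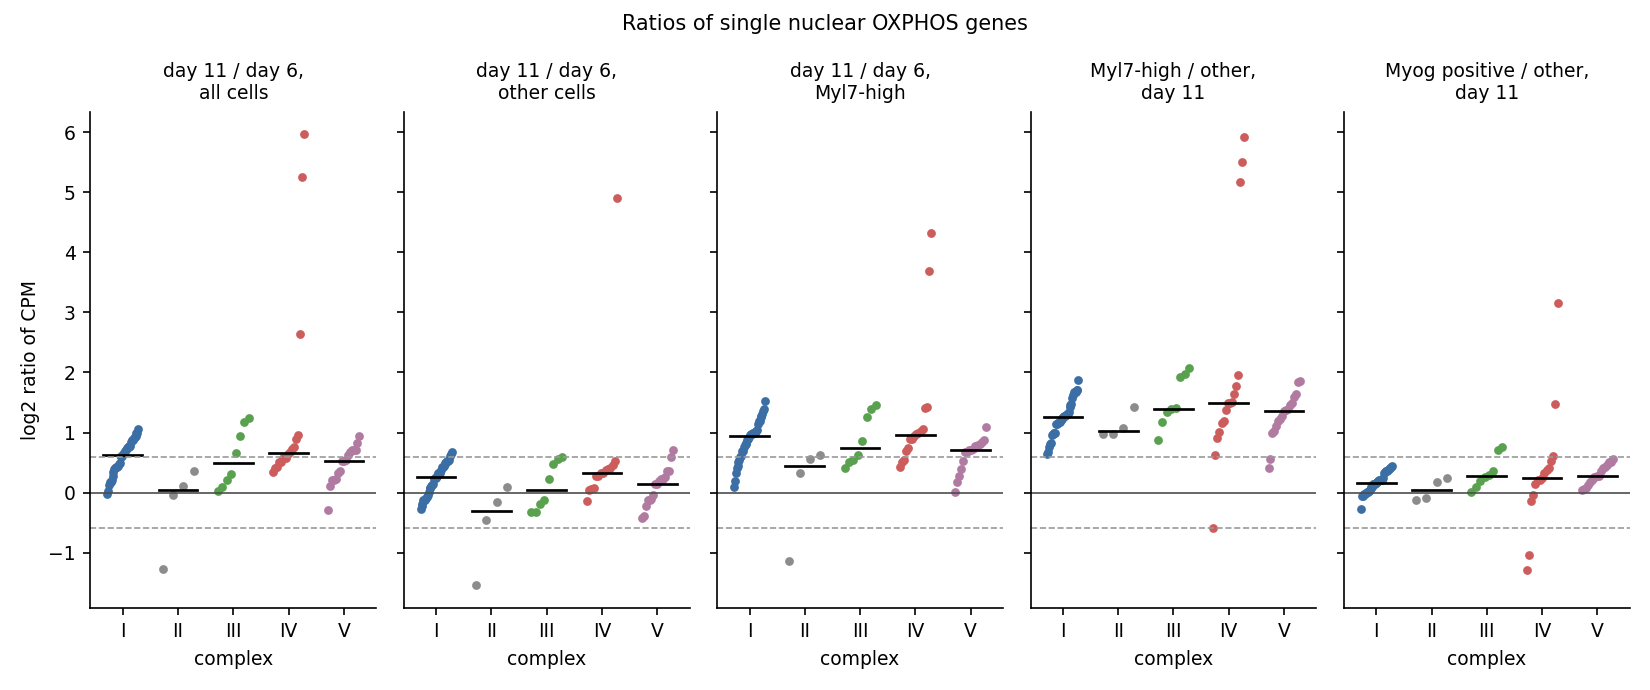
Log2 ratio of CPM of each compared gene, by complex, in 5 comparisons named above the panels; each point is 1 gene, black bars are the medians of the complexes, and dashed lines mark 1.5-fold in either direction. In Myl7-high cells of day 11, 78 of 81 points lie past the upper line, in Myog positive cells 5 of 80.

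Among Myl7-high cells of day 11, those with high and low Myl2 differed little in these genes. Cells with high Myl2 had 2 of 81 genes higher and 0 lower than those below the limit, against 3.22% and 5.46% of all genes, with a median log2 ratio of 0.12. The 2 were Cox8b, at 151 against 66.1 CPM (2.29), and Ndufs6 (1.59). Cox7a1 was at 397 against 283 CPM (1.40), whereas Cox6a2 was level, at 2748 against 2783 CPM. The lowest ratio was that of Cox6a1 (0.789).

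Myog positive cells stood near the other cells of day 11. Of 80 genes, 5 were higher and 2 lower, against 7.75% and 28.1% of all genes. The median log2 ratio was 0.21 against -0.26. Relative to the all-gene median 26 were higher and 2 lower, but the share of all genes was not counted on that scale. The muscle form Cox8b was at 18.1 against 2.04 CPM (8.87, 6.63 to 11.8, from 71 UMIs in Myog positive cells and admitted by their level alone) and Cox6a2 at 128 against 45.9 CPM (2.79, 2.54 to 3.06). Both ratios depend on which other cells are taken: those with under 200 CPM of Myl7 held 0.405 CPM of Cox8b and 8.67 CPM of Cox6a2. Uqcrq (538 against 319 CPM, 1.69), Uqcr11 (1.63) and Cox5a (806 against 531 CPM, 1.52) completed the 5. Lower were Cox4i2, at 23.99 against 58.4 CPM (0.411), and Cox6b2 (0.488), and Ndufa6 followed at 0.831, within the limit. The other references lay within the limit: Ndufv1 had 124 against 91.1 CPM, Sdha 72.2 against 77.2, Uqcrc1 116 against 101 and Atp5b 736 against 515. The split moved to 9 higher and 2 lower on a total without ribosomal protein and mitochondrially encoded genes, and at 2-fold 2 were higher. Set directly against Myog positive cells, Myl7-high cells had 75 of 81 genes higher and 0 lower (background 27.3% and 23.1%).

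The Myog positive cells were themselves divided by Myh3, an early sarcomere gene of differentiating fibres. In the 63 cells with 2 or more Myh3 UMIs, 5 of 80 genes were higher and 2 lower than in the 116 below, against 15.2% and 29.6% of all genes, and the summed share was 3.49% against 3.45%. Muscle forms had the highest ratios. Cox6a2 was at 327 CPM (298 to 359) against 15.6 CPM (11.1 to 21.3), a ratio of 21.0, and Cox8b at 48.1 against 1.20 CPM, from 68 and 3 UMIs, a ratio of 40.2 whose interval ran from 13.2 to 199.5. Cox5a was at 1086 against 648 CPM (1.68), and Ndufa3, an accessory subunit of complex I, had a ratio of 1.57. Cox4i2 (0.310) and Cox6b2 (0.409) were lower.

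Promoters of ubiquitous and muscle forms of complex IV subunits are shown because the muscle forms had the highest ratios in Myl7-high cells of day 11; no window is shown for Cox6a2. They are taken from RefSeq on mouse build GRCm38.p6, from 250 bases before to 25 bases after the start of the gene, 5′ to 3′ on the gene's own strand; capitals mark matches to the NRF1 letters GCGCATGC, the ETS letters CCGGAAG and the E-box letters CAGCTG, searched on both strands. The ubiquitous forms Cox6a1 (chr5:115348934-115349208, minus strand), Cox7a2 (chr9:79759829-79760103, minus strand) and Cox8a (chr19:7217592-7217866, minus strand) come first, then the muscle forms Cox8b (chr7:140900422-140900696, minus strand) and Cox7a1 (chr7:30183921-30184195, plus strand).
Cox6a1: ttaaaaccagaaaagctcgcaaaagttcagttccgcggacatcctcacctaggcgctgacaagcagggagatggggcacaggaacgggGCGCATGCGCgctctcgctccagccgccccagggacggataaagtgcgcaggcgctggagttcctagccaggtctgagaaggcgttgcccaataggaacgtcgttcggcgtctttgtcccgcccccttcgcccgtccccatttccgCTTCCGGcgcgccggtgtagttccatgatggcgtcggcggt
Cox7a2: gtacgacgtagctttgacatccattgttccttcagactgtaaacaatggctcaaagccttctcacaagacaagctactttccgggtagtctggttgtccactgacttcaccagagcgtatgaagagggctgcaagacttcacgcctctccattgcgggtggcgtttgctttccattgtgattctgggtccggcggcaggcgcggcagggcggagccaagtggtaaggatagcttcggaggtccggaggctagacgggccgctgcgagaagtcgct
Cox8a: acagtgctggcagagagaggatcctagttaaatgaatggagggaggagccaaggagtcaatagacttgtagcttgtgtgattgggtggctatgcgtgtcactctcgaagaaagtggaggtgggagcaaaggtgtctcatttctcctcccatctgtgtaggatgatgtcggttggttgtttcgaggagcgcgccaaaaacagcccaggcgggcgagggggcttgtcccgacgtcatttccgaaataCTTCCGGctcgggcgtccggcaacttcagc
Cox8b: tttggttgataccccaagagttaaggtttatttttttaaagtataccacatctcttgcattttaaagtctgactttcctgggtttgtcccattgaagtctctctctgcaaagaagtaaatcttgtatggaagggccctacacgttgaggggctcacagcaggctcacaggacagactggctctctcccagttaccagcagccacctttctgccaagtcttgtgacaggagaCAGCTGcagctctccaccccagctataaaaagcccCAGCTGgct
Cox7a1: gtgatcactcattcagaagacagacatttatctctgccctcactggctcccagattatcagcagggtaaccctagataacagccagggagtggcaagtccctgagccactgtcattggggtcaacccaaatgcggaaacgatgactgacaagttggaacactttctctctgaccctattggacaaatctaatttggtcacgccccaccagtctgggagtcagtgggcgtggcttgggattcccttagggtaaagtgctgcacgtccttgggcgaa
In Cox6a1 the NRF1 letters match on both strands over the same palindrome, starting at -162 and -160 (the gene's first base is 1, and there is no 0), and the ETS letters at -16. Cox8a holds the ETS letters at -5, Cox8b the E-box letters at -19 and 17, and Cox7a1 and Cox7a2 none of the strings searched. Of the 83 genes, 68 had such a window, and over the full window of 250 bases before to 50 after the start 10 of the 68 (14.7%) held the NRF1 letters against 3.05% of 27025 genes, 17 (25%) the ETS letters against 9.93%, 2 (2.94%) the ERR letters TCAAGGTCA against 0.466%, 6 (8.82%) the E-box letters against 18.3%, and 0 the MEF2 letters CTATTTATA against 0.492%. These are matches of letters and not bound sites.

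Cox6a2 (chromosome 7, 128205435 to 128206387 on the minus strand, GRCm38) was nearly absent at day 4 and the main form of its pair over all cells pooled at day 11. It made up 0.0344%, 2.38%, 9.31% and 72.6% of Cox6a UMIs in day order. At day 11, 73597 of its 77875 UMIs lay in Myl7-high cells. In the other cells of that day it made up 17.5% of Cox6a UMIs, and 3.90% in those with under 200 CPM of Myl7. At day 5 a UMI of it was found in 635 of 6457 cells (883 UMIs), and among the marker-gated sets of that day it was highest in cells with Pdgfra and Twist1 (5.51 CPM) and lowest in those with Epcam and Foxa2 (1.08 CPM). In Myl7-high cells the share was 41.5% at day 6 and 87.2% at day 11 (87.0 to 87.4), so the muscle form was the larger part there at day 11. Cox6a1 was not lower in these cells: it was at 406 CPM at day 11, against 212 in Myog positive and 217 in other cells. With every cell thinned to 5000 UMIs, 39.8% of Myl7-high cells had a Cox6a2 UMI at day 6 and 95.4% at day 11; 435 of 439 and 1201 of 1310 of these cells had that depth. In Myog positive cells 37.7% (35.1 to 40.4) of Cox6a UMIs were Cox6a2, and 23.2% of the thinned cells had a UMI of it.

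A reading of Cox6a2 outside Myl7-high cells has to be set beside the RNA that drifts between droplets. Cells with the endothelial genes Cdh5 and Pecam1, a type that should lack the muscle form, held 10.7 CPM, and 4.32% of them had a UMI after thinning, against 5.77% of all other cells. Their ratio of Cox6a2 to Myl7 was 175 UMIs per 1000 Myl7 UMIs, and those of the remaining gated sets ran from 192 in the Sox2 and Sox3 cells to 265 in the Pdgfra and Twist1 cells, against 157 in Myl7-high cells. In Myog positive cells the ratio was 3218 and in those with Myh3 9646, at a Myl7 level of only 39.8 and 33.9 CPM against 61.0 CPM in the endothelial set. The 108 Myog positive cells without a single Myl7 UMI held Cox6a2 at 168 CPM, 45.6% of their Cox6a UMIs. The 45.9 CPM of the other cells came mostly from cells with at least 200 CPM of Myl7: those with less, 5882 cells, held 8.67 CPM, and accounted for 664 of 3776 Cox6a2 UMIs. By level, Myog positive cells with less Myh3 (15.6 CPM, 6.404% of Cox6a UMIs) lay within the range of the gated sets without muscle genes. That range ran from 5.75 CPM in the Sox2 and Sox3 cells to 21.1 CPM in the Pdgfra and Twist1 cells. By ratio, the cells with less Myh3 had 361 Cox6a2 UMIs per 1000 Myl7 UMIs, from 39 and 108 UMIs, above those sets. The Myl7-high cells were gated on Myl7 itself, so their ratio to Myl7 depends on the gate. The part of drifting RNA in these levels and ratios was not tested.

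Cox7a1 (chromosome 7, 30184144 to 30186078 on the plus strand) separated the Myl7-high from the Myog positive cells. It was at 119 CPM in Myl7-high cells of day 6, 13.4% of Cox7a1 and Cox7a2 UMIs, and at 318 CPM at day 11, 19.9%. In Myog positive cells it was at 2.04 CPM (0.881 to 4.02, from 8 UMIs), 0.290% of the pair. That was below the 5.33 CPM of the endothelial set and the 8.79 CPM of the other cells. Per 1000 Myl7 UMIs, Cox7a1 had 51.3 UMIs in Myog positive cells, 87.5 in the endothelial set and 18.0 in Myl7-high cells. The part of drifting RNA in these levels was not tested. The Myh3 cells, which held Cox6a2 and Cox8b, had 4 Cox7a1 UMIs in all (2.83 CPM). After thinning, 65.7% of Myl7-high cells had a UMI, against 2.26% of Myog positive and 3.23% of other cells. Unlike the other muscle forms, Cox7a1 was measurable at day 4: it had 10.5 CPM over all cells, 31.6 CPM in cells with Epcam and Foxa2 and 18.4 CPM in those with Pou5f1 and Dppa5a, pluripotency genes, where day 5 gave 22.1 CPM. Cox7a2 stayed the main form throughout, with 1281 CPM in Myl7-high cells of day 11.

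Cox8b (chromosome 7, 140898945 to 140900446 on the minus strand) remained a minor form everywhere. The first 3 days gave 0, 3 and 57 UMIs of it, and in Myl7-high cells of day 11 it was at 92.3 CPM, 2.54% of Cox8 UMIs beside 3540 CPM of Cox8a. Its share was 4.06% in cells with high Myl2 and 1.84% in those below. In Myog positive cells it was at 18.1 CPM (14.2 to 22.9), 0.994% of the group, against 0.980 CPM in the endothelial set. Thinned, 31.0% of Myl7-high, 7.34% of Myog positive and 0.522% of other cells had a UMI. Cox8a itself was at 3540 CPM in Myl7-high, 1804 in Myog positive and 1254 in other cells, and passed the 1.5-fold limit against other cells in the first set only.

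**Figure D4:**
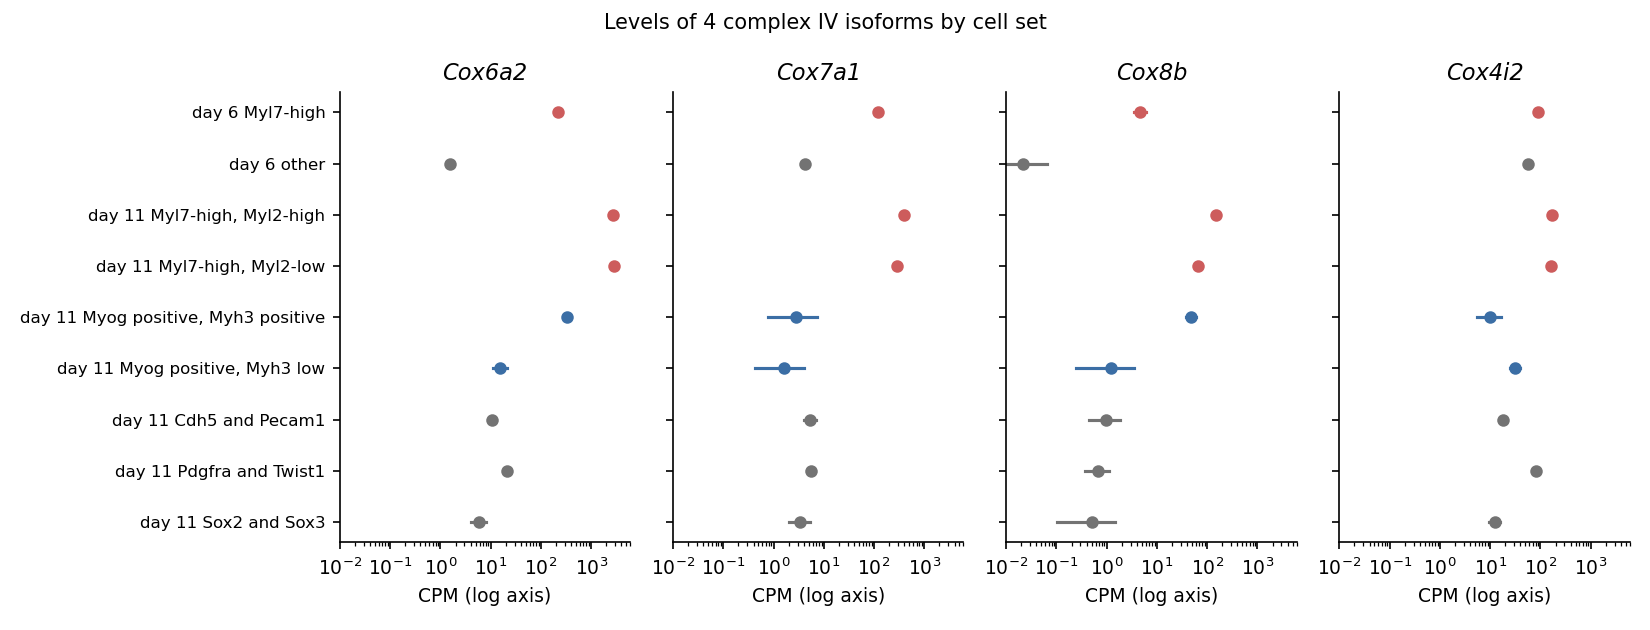
Level in CPM (log axis) of Cox6a2, Cox7a1, Cox8b and Cox4i2 in cell sets of days 6 and 11, with 95% counting intervals as bars; red marks Myl7-high, blue Myog positive and grey other cells. Cox6a2 is high in the Myl7-high sets and in the Myog positive cells with Myh3 (327 CPM). Cox8b is high in the day 11 Myl7-high sets and in those Myh3 cells (48.1 CPM), against 4.63 CPM in the day 6 Myl7-high set. Cox7a1 is high in the Myl7-high sets only among those shown, and Cox4i2 also in the Pdgfra and Twist1 cells (81.3 CPM).

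The remaining isoform pairs followed other lines. Cox4i2 (chromosome 2) was at 10.1, 6.80, 58.2 and 82.6 CPM by day, that is 1.297%, 0.763%, 6.19% and 5.34% of Cox4i UMIs. It was not bound to heart muscle: cells with Pdgfra and Twist1 had 80.6 CPM (8.72%) at day 6 and 81.3 CPM (7.26%) at day 11, next to 90.0 and 166 CPM in Myl7-high cells, whereas the endothelial set had 9.94 and 17.7 CPM and Myog positive cells 23.99 CPM. As a share of Cox4i, Myl7-high cells of day 11 (6.18%) were below the Pdgfra and Twist1 cells (7.26%). Cox6b2 (chromosome 7) was highest early, at 53.0 and 92.9 CPM on days 4 and 5 (8.57% and 11.6% of Cox6b UMIs), and at 27.96 and 37.7 CPM on days 6 and 11. It was at 86.9 CPM in the Pou5f1 and Dppa5a cells of day 4 and at 126 CPM in the Sox2 and Sox3 cells of day 5, and in Myl7-high cells it gave 1.61% and 1.52% of the pair at days 6 and 11. Cox7b2 and Cox8c stayed under 1 CPM on every day and in each of the main sets.

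The 3 ATP synthase c-subunit genes stood in another order in Myl7-high cells of day 11. Atp5g2 was the main one on all 4 days, with 57.0%, 59.5%, 58.0% and 43.4% of their UMIs, and Atp5g1 had 25.5%, 23.7%, 21.8% and 35.1%. In Myl7-high cells Atp5g1, Atp5g2 and Atp5g3 took 29.0%, 42.2% and 28.8% at day 6 and 44.4%, 30.6% and 25.01% at day 11, so Atp5g1 was the main form there. The level of Atp5g2 was alike on both days (1221 and 1229 CPM), and that of Atp5g1 was 838 and 1785 CPM. Other cells of day 11 kept 52.8% for Atp5g2, and Myog positive cells lay between, at 34.2%, 44.7% and 21.1%. Near-identical coding parts and processed copies of these genes may take reads from one another, so their shares are less certain than those of the Cox forms.

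Genes that feed or build the chain were read from lists chosen by function. Among 12 genes of fatty acid oxidation, 10 could be compared in Myl7-high cells of day 11 and all 10 were higher than in other cells, as were 8 of 10 at day 6; at day 11 Fabp3, the fatty acid carrier of heart muscle, was at 403 CPM in Myl7-high and 18.3 in other cells, and Cpt1b, the muscle form of the enzyme that admits fatty acids to mitochondria, at 68.0 and 1.84 CPM, admitted by its Myl7-high level alone. Of 13 Krebs cycle genes 12 were higher in Myl7-high cells at day 11, among them citrate synthase, Cs (108 against 35.9 CPM), and 5 were higher and 1 lower at day 6. The 13 mitochondrially encoded subunits gave 10 higher at day 11 and 0 at day 6, where 52 nuclear genes had passed. Assembly factors, which put the complexes together, gave 13 higher and 1 lower of 30 at day 11. Of 5 genes of energy transfer compared, 4 were higher, led by Slc25a4, the heart and muscle carrier that exchanges ATP for ADP (3305 against 836 CPM). Among 6 regulators of mitochondrial genes, the coactivator Ppargc1a (57.6 against 4.07 CPM), Ppargc1b and the nuclear receptor Esrra (35.1 against 8.53 CPM) were higher, and the transcription factor Nrf1, whose binding letters were counted above, was lower (11.3 against 22.6 CPM). In Myog positive cells no Krebs cycle gene of 13, no mitochondrially encoded subunit and no assembly factor was higher, 1 subunit (mt-Nd6) and 1 assembly factor (Cox20) were lower, and 2 of 9 fatty acid oxidation genes were higher. Of all genes compared, 17.2% were higher and 32.2% lower in Myl7-high cells of day 11, 13.4% and 16.2% in those of day 6, and 7.75% and 28.1% in Myog positive cells.

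Glycolysis ran on a different course through the days. Summed relative to day 4, the 83 nuclear genes were at 1.09, 1.02 and 1.52 at days 5, 6 and 11, fatty acid oxidation at 1.51, 1.49 and 2.93, and the Krebs cycle at 1.12, 1.16 and 1.42, whereas glycolysis was at 0.727, 1.3 and 1.32 and a list of 7 hypoxia-responsive genes at 0.443, 1.64 and 3.04. Day 5 was thus the low point of glycolysis: 8 of 14 genes compared were lower than at day 4 and 0 higher, and 14 of 15 were higher at day 6 than at day 5, the glucose carrier Slc2a3 being lower. Of all genes, 14.5% were higher and 15.3% lower at day 5 than at day 4, and 24.1% were higher and 9.65% lower at day 6 than at day 5. Hk2, the first enzyme, had 86.0, 21.2 and 59.9 CPM at days 4, 5 and 6, Pfkl, the committed step, 196, 70.9 and 234 CPM, and the hypoxia-responsive Bnip3 144, 47.7 and 215 CPM. Of the 6 hypoxia genes compared, 5 were lower at day 5 and all 6 higher at day 6. Cox4i2 stood out among the 83 genes on that day too, and any link between them was not tested. In Myl7-high cells of day 11, 11 of 15 glycolysis genes and 5 of 7 hypoxia genes were higher than in other cells, and in Myog positive cells 5 of 15 and 5 of 7 were lower. The shares over all genes were 17.2% higher in the former comparison and 28.1% lower in the latter, so the 5 of 15 glycolysis genes lay near the share of all genes.

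**Figure D5:**
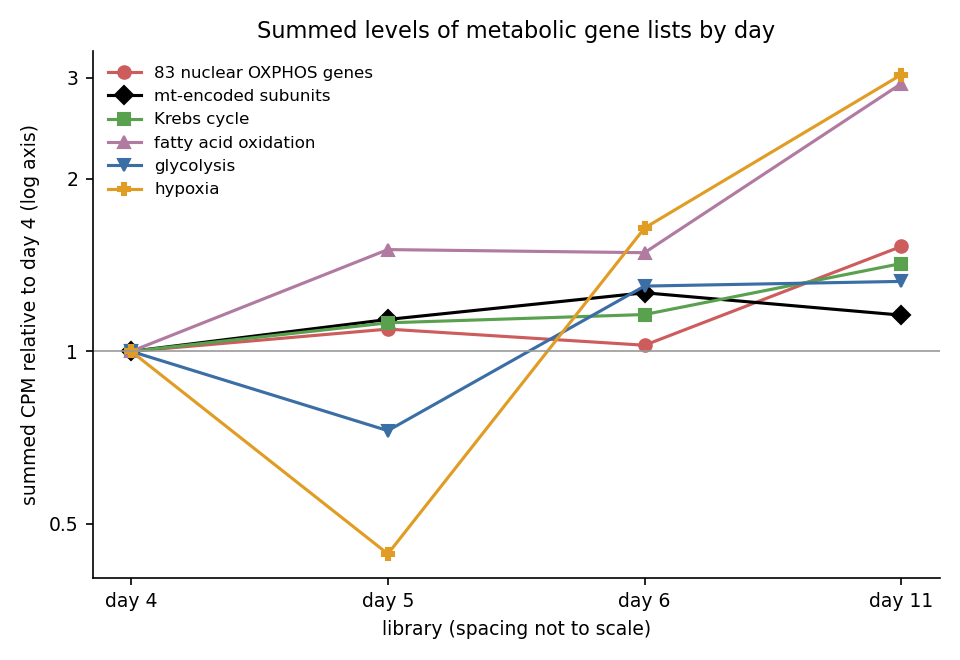
Summed CPM of each gene list over all cells, relative to day 4 (log axis), for the 4 libraries in day order, with the days not spaced to scale. The 83 nuclear genes stay within 1.02 to 1.09 at days 5 and 6 and reach 1.52 at day 11, while glycolysis and the hypoxia-responsive genes dip to 0.727 and 0.443 at day 5.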

How the data were processed

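Gastruloid cells of days 4, 5, 6 and 11 were profiled with the 10x Genomics 3′ kit, 1 library per day, and the deposited matrices hold whole UMI counts per gene and cell, not normalized. Per the file headers the authors ran Cell Ranger 3.1.0 on days 4 to 6 and 6.0.1 on day 11, while the labels give 3.1.0 and mm10 for each; the annotation release is not given in the sources used here. Groups are the days in the labels. The cells were listed as called by the authors, with 32286 features (32287 at day 11).

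Kept cells had more than 200 genes, under 20% mitochondrial and over 5% ribosomal protein UMIs, and a log10 UMI total no further than 3 scaled median absolute deviations from the library's median; the top 8% by similarity to simulated doublets (2 per cell, 30 components of 2000 genes) were removed. Counts were summed per set and scaled to CPM. A gene was compared at a mean of at least 10 CPM and counted past 1.5-fold, in the same way over all genes, which gives the background. Intervals are 95% (Poisson for levels, Clopper-Pearson for shares, conditional binomial for ratios) and cover counting error only. Thinning drew 5000 UMIs per cell without replacement. No test was made, since cells of 1 library are not replicates. Genes named in each comparison are the 3 highest and 3 lowest ratios, the isoform groups and 11 references (Ndufv1, Ndufs1, Ndufa4, Sdha, Sdhb, Uqcrc1, Uqcrfs1, Cox5a, Cox6c, Atp5a1 and Atp5b); further genes past the limit, and genes of other lists, were picked for naming after their values were seen. 1 item is not reported here. The genes, lists and cell sets were chosen with earlier results of these data known. Alternatives covered cell filters, depth, total, centring, minimum level, fold limit and gates. Promoter windows came from RefSeq (GRCm38.p6), where all 83 genes matched by symbol or synonym and 68 had a window, and gene positions from GENCODE vM21. The steps ran in Python 3.11.15 with numpy 2.4.6, pandas 2.3.3, scipy 1.17.1 and matplotlib 3.10.9, and were tested on simulated data.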

Additional observations from a re-analysis of the deposited data

Results flagged for a closer look

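Each value here is a ratio of CPM that lay on opposite sides of 1 in Myl7-high and in the other set of cells. For single genes both counting intervals had to leave out 1, with no further limit on size. For day 11 against day 6 this held for 22 of the 79 genes compared in both sets. The 9 of them from the isoform groups and references are named. The share of all genes was not counted, and with 1 library per day the difference between the sets was not tested. In the iron-sulfur subunit Ndufs1 the ratio of day 11 to day 6 was 1.86 in Myl7-high and 0.916 in other cells, in Ndufa4 it was 1.26 and 0.851, and in Sdha 1.47 and 0.898. In complex III Uqcrc1 had 1.82 and 0.913 and Uqcrfs1 1.45 and 0.874. Cox5a of complex IV had 1.42 and 0.909. In complex V the catalytic subunits Atp5a1 and Atp5b had 1.60 and 0.967, and 1.63 and 0.742, and the c-subunit gene Atp5g3 1.21 and 0.851.

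The same was seen in sums, which were listed only where both ratios also cleared a small margin around 1. Complex II had a ratio of day 11 to day 6 of 1.17 in Myl7-high and 0.792 in other cells, the mitochondrially encoded subunits 1.13 and 0.793, and the glycolysis list 1.28 and 0.816. Against the other cells of day 11, 3 of the 80 genes compared in both sets were opposite. Of these only Cox4i2 belongs to the isoform groups or references, at 2.84 in Myl7-high and 0.411 in Myog positive cells. The sum of the hypoxia-responsive genes stood at 1.83 and 0.605.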

How the results depend on the processing

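Each library stands alone, so no value here has a replicate error. A share is said to have moved where it left its counting interval, and a count of genes where it changed by more than 1.5-fold. No paired analysis was possible because each day has 1 library. Leaving out a library was likewise not possible, and depth limits the low isoforms most: the 8 Cox7a1 and 71 Cox8b UMIs of Myog positive cells. Under the alternatives other than thinning 125 values stayed within their limits and 71 did not, and under thinning 4 stayed and 5 did not. The cause of each move was not tested unless the alternative itself gives it.

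With doublets left in, the share of UMIs in the 83 genes was 2.66%, 2.91%, 2.73% and 4.03% by day and 7.198% in Myl7-high cells of day 11, 0 genes were lower there, and Cox6a2, Cox7a1 and Cox8b gave 86.8%, 19% and 2.42% of their groups. With every cell of more than 200 genes the shares were 2.67%, 2.91%, 2.72% and 4.13% by day and 7.15% in Myl7-high cells, 0 genes were lower there and 3 were higher in Myog positive cells, Cox7a1 and Cox8b gave 18.6% and 2.32% in Myl7-high cells, and Cox7a1 0.589% in Myog positive cells. In cells of 8000 to 20000 UMIs the shares were 2.66%, 2.74%, 2.88% and 3.57% by day, 7.37% in Myl7-high and 2.90% in other cells; 1 gene was higher and 1 lower at day 5, 7 higher at day 6, 16 higher at day 11 and 17 higher in Myl7-high cells of day 6; Cox6a2 and Cox7a1 gave 86.9% and 18.8% in Myl7-high cells of day 11, and Cox6a2 41.0% in Myog positive cells. As a mean over cells the shares were 2.64%, 2.89%, 2.76% and 3.70% by day, 7.43% in Myl7-high, 3.43% in Myog positive and 2.94% in other cells, and 26 genes were higher at day 11 than at day 6.

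On a total without ribosomal protein and mitochondrially encoded genes the shares were 4.21%, 4.51%, 3.90% and 5.58% by day and 9.69%, 5.17% and 4.14% in Myl7-high, Myog positive and other cells; 2 genes were lower at day 5, 34 were higher in Myl7-high cells of day 6 and 9 in Myog positive cells. With ratios divided by the median over all genes (log2 shifts of 0.17 for day 6 against day 5 and of -0.26 for both sets of day 11), 11 genes were lower at day 6, 0 lower in Myl7-high cells of day 11 and 26 higher in Myog positive cells. With no minimum beyond 3 UMIs, 9 genes were higher and 1 lower at day 5, and 4 lower in Myog positive cells; at a minimum of 50 CPM, 2 were higher at day 6, and 0 were lower in Myl7-high cells of day 6, in those of day 11 and in Myog positive cells. At a 2-fold limit, 0 genes were higher at day 5, 2 higher and 1 lower at day 6, 6 higher at day 11, 9 higher in Myl7-high cells of day 6, 0 lower in those of day 11 and 2 higher in Myog positive cells.

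With the Myl7 limit at 6000 CPM, 3 genes were higher in Myog positive cells and Cox7a1 gave 20.4% in Myl7-high cells; with at least 2 Myog UMIs, Cox6a2 gave 43.1% in Myog positive cells. Thinning to 3000 UMIs left 92.8% of Myl7-high cells with a UMI of Cox6a2, 52.4% with Cox7a1 and 21.3% with Cox8b, and 4.02% and 1.99% of other cells with the first and second. The limit of 1500 CPM for Myl7, and a Myog positive set of cells with under 200 CPM of Myl7, which was chosen after seeing the data (Cox6a2 at 37.4% of its pair), moved none of the values listed for them.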

Other observations

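Cells in division stood somewhat lower among the Myl7-high cells. At day 6 the 83 genes took 3.80% of UMIs in 79 Myl7-high cells with 2 or more Top2a UMIs and 4.32% in the other 360, and at day 11 7.11% in 125 and 7.65% in 1185. Cox6a2 was at 112 against 245 CPM at day 6 and at 2235 against 2867 CPM at day 11. The cells with Top2a were the deeper ones, with median depths of 29716 against 22970 UMIs at day 6 and 31505 against 16594 at day 11, and the part of depth in this was not tested.

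Among the 32 assembly factors, Ndufaf2, a chaperone of complex I, was the 1 that was lower in Myl7-high cells of day 11, at 32.1 against 58.7 CPM, while 36 of 36 genes listed under complex I were higher. It was named after its values were seen.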
